A study of Mus musculus with 24 samples.

Results

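The miRNAs described are the mature mouse miRNAs of the miR-466, miR-467, miR-669 and miR-297 families. They were chosen by name, as every entry of the array called mmu-miR-466, mmu-miR-467, mmu-miR-669 or mmu-miR-297 followed by a letter or a hyphen. This gave 61 of the 1881 miRNAs on the array, with 162 of its 4415 probes: 23 in the miR-466 family, 12 in miR-467, 23 in miR-669 and 3 in miR-297. The rule uses no measured value, though these families were proposed with earlier results of the same data in view. Levels were measured on 24 single-colour Agilent arrays labelled with Cy3, from the livers and sera of male mice of the C57BL/6NJcl strain. NASH mice received CDAHFD, a choline-deficient and amino acid-defined diet high in fat with 0.1% methionine, a feeding model of non-alcoholic steatohepatitis. Control mice received the chow CE-2. All mice were bought at 5 weeks of age and acclimatized for 1 week, and were 7, 8 or 12 weeks old when tissue was taken after 1, 2 or 6 weeks of diet. Each combination of tissue, diet and week had 2 arrays. The labels do not say whether these came from separate mice, so the p-values measure the spread between arrays, which may be technical.

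Most of these miRNAs come from a large cluster in an intron of Sfmbt2, a gene related to the Polycomb group that is imprinted and expressed from the paternal allele in extraembryonic tissue. The cluster grew by local duplication in rodents, and its many hairpins differ by few bases. The -5p arms are rich in UG repeats and the -3p arms in CA repeats, so that several mature miRNAs look alike to a hybridization probe. A miRNA represses transcripts mainly through pairing of its seed, bases 2 to 8.

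The cluster name covers only part of the families. For 49 of the 61 members, every gene of that name in the RefSeq table lay inside Sfmbt2. For 3 members (miR-297a-3p, miR-466f-3p and miR-466f-5p) genes lay both inside and outside it. For 8 members (miR-466i-3p, miR-466i-5p, miR-466j, miR-466k, miR-466q, miR-467f, miR-467g and miR-669n) the genes lay elsewhere, and miR-466a-5p was not matched to a gene. The members are therefore called by their family names here.

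The sequences that show the repeats are given 5′ to 3′ from RefSeq (build GRCm38.p6), with the seed in capitals. Mature sequences were matched for 7 of the 61 members, which do not include miR-466i-5p or miR-467b-3p. The first set holds CA-rich members that were detected in liver as well as serum. In it, miR-466i-3p lies at chr13:17747552-17747573 on the plus strand within Cdk13, miR-466q at chr3:28419988-28420007 on the plus strand within Tnik, and miR-467f at chr11:69635419-69635439 on the minus strand within Fxr2.
miR-466i-3p: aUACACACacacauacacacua
miR-466q: gUGCACACacacacauacgu
miR-467f: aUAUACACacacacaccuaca

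The second set holds UG-rich members that every serum array detected. Of these, miR-466j lies at chr10:60960802-60960824 on the plus strand, with no overlapping gene in the table, and miR-669n at chr3:115979905-115979924 on the plus strand within Slc30a7.
miR-466j: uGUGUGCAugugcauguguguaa
miR-669n: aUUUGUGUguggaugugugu

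The third set holds 3 miRNAs of other families that carry a UG repeat and were measured on the same arrays. Of these, miR-574-5p lies at chr5:64970328-64970350 on the plus strand within Fam114a1 and Tlr6, miR-1187 at chr5:82798964-82798986 on the minus strand with no overlapping gene, and miR-3082-5p at chr17:25831406-25831427 on the minus strand within Jmjd8 and Stub1.
miR-574-5p: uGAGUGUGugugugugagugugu
miR-1187: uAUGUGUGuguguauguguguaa
miR-3082-5p: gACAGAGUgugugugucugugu

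The members of the first set overlap in sequence over long runs. miR-466i-3p shares a run of 14 bases with miR-466q and of 13 with miR-467f. In the third set, miR-574-5p shares 12 bases with miR-3082-5p and 11 with miR-1187. miR-466j shares 10 bases with miR-1187. No 2 members with a matched sequence had the same seed. The run UGUGUGUG was found in 7 of 1608 mature sequences of the table that are on the array (0.435%), 2 of them members (miR-669n and miR-466k, the latter not detected on any array), and CACACACA in 4 (0.249%), all of them members; mature sequences were searched on their own strand, and the longer repeats contain the motif more than once. The 1608 sequences include only 7 of the 61 members, so these shares leave out most of the families. The 5 other miRNAs with UGUGUGUG were miR-574-5p, miR-1187, miR-3082-5p, miR-32-3p and miR-672-5p. All 5 were detected on 12 of 12 serum arrays, whereas 157 of the 1608 sequences (9.76%) were. In liver, miR-574-5p and miR-1187 were detected on 12 arrays, miR-3082-5p on 10, and miR-32-3p and miR-672-5p on none.

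Arrays detected between 235 and 399 miRNAs, by the detection flag that the scanner software gives each miRNA. The hepatocyte miRNA miR-122-5p was detected on every liver array, and the red cell miRNA miR-451a on every serum array, as were all 4 hepatocyte markers in both tissues. Each array lay on 1 of 3 slides, both diets of a week shared a slide, and control and NASH arrays always occupied different slide columns, so the effects of diet and of slide column cannot be told apart. Labelling used 100 ng of liver RNA and 2.5 ng of serum RNA (from 200 uL of serum), so tissue and RNA amount cannot be told apart either. The serum array of control week 2, replicate 2 had the lowest number of miRNAs (235) and the lowest scaling signal, and the serum array of control week 1, replicate 2 had 3389 outlier spots where the others had 1384 to 1722.

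More members were detected in serum than in liver, and most of the surplus were -5p arms. At least 1 array detected 30 of the 61 members (49.2%), against 568 of all 1881 miRNAs (30.2%), and the other 31 members were not detected on any array. Serum detected 26 members (42.6%, against 24.8% of all miRNAs) and liver 14 (23.0%, against 23.2%). On every serum array 15 members were detected (24.6%, against 10.4%), and on every liver array 6 (9.84%, against 11.6%). The liver shares were close to those of all miRNAs. Both tissues detected miR-466f-3p and miR-466i-5p on all 24 arrays.

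A group of 11 members was detected on 12 of 12 serum arrays and on 0 of 12 liver arrays. They were miR-466c-5p, miR-466f-5p, miR-466h-5p, miR-466j, miR-466m-5p, miR-467c-5p, miR-669b-5p, miR-669e-5p, miR-669k-5p, miR-669l-5p and miR-669o-5p. They made up 18.0% of the members, against 1.49% of all miRNAs on the array (28 of 1881). For miR-669e-5p, with the highest serum median of the 11, the lowest, median and highest background-subtracted intensities were -1.69, 0.297 and 1.86 in liver and 20.5, 45.6 and 94.9 in serum. For miR-467c-5p, with the lowest, they were 0.263, 1.20 and 3.30 in liver and 8.16, 16.7 and 30.8 in serum. Its brightest probe was well above background on 8 of 12 serum arrays. On the slide that held both tissues, serum week 6 arrays detected 18 to 23 members and liver week 1 arrays 7 to 12. These counts describe detection and were not tested, since RNA amount differs with the tissue.

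**Figure D1:**
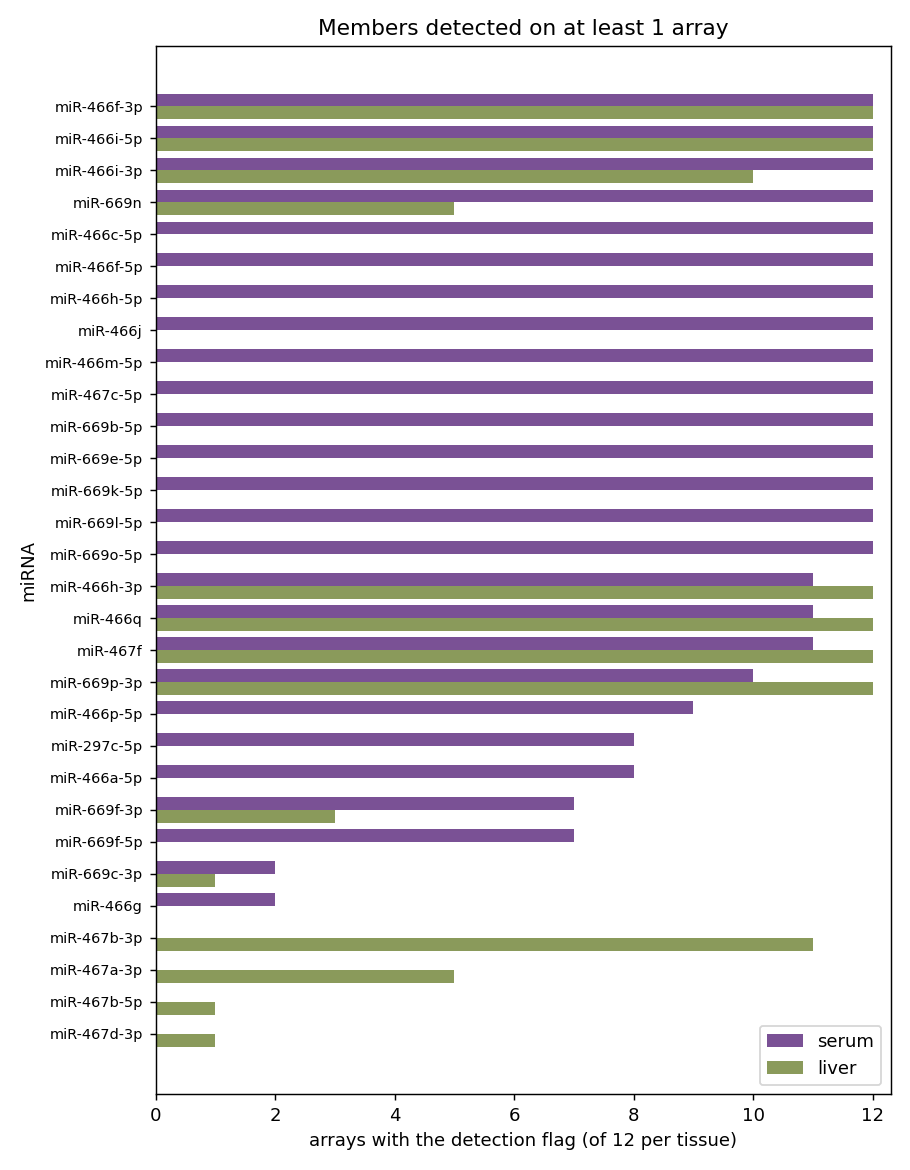
Number of arrays with the detection flag (x axis, of 12 per tissue) for each of the 30 members detected on at least 1 array (y axis), with 1 bar for serum and 1 for liver. The 11 members with a full serum bar and no liver bar are 10 -5p arms and miR-466j, and miR-467b-3p has a liver bar of 11 and no serum bar.

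The arms divided these patterns. Of 25 members named -5p, serum detected 15 and liver 2, and 10 (40.0%) were on all serum and no liver arrays; of the other 750 miRNAs named -5p, 5 were (0.667%). Of 26 members named -3p, serum detected 6 and liver 9, and none was on all serum and no liver arrays. Of the other miRNAs named -3p, serum detected 23.2%, liver 24.1%, and 0.791% were on all serum and no liver arrays. Of 10 members without an arm in the name, serum detected 5 and liver 3. Detection in liver without any in serum was seen for 4 members (6.56%, against 5.42% of all miRNAs), all of the miR-467 family and all with genes inside Sfmbt2: miR-467b-3p on 11 liver arrays, miR-467a-3p on 5, and miR-467b-5p and miR-467d-3p on 1 each.

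Detection is given next by gene position, as a description. Of the 49 members with all genes in Sfmbt2, liver detected 8 on any array and 2 (miR-466h-3p and miR-669p-3p) on all 12. Of the 8 members with genes elsewhere, liver detected 5 on any array and 3 (miR-466i-5p, miR-466q and miR-467f) on all 12. Serum detected 17 of the 49 and 6 of the 8. Of all miRNAs on the array, liver detected 23.2% on any array and 11.6% on all 12, and serum detected 24.8% on any array. Whether detection differs with gene position was not tested.

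More members were detected on NASH than on control liver arrays. Liver NASH arrays detected 10.7 ± 1.63 members (SD, n = 6; 8 to 12) and control arrays 7.5 ± 0.548 (SD, n = 6; 7 to 8). The mean difference of 3.17 had a two-sided exact permutation p of 0.0185 with diet permuted within weeks, where the smallest p the design allows is 0.0093. The array as a whole moved the same way: NASH liver arrays detected 65.7 more miRNAs than control arrays, with an exact permutation p of 0.0093, and their scaling signal was 505 to 868 intensity units against 394 to 646. The part of this in the members' count was not tested. Of the 14 members detected in liver, 6 were detected only on NASH arrays (42.9%) and none only on control arrays; for all miRNAs detected in liver the shares were 18.3% and 4.82%. The 6 were miR-467a-3p and miR-669n on 5 NASH arrays each, miR-669f-3p on 3, and miR-467b-5p, miR-467d-3p and miR-669c-3p on 1 each.

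In serum the difference in the number of members did not pass. NASH serum arrays detected 23.8 ± 1.94 members (SD, n = 6; 21 to 26) and control arrays 20.5 ± 3.73 (SD, n = 6; 15 to 24), a difference of 3.33 with an exact permutation p of 0.0833. The result depended on single arrays and on what counts as detected. Without NASH week 1, replicate 1 the difference was 3.67 (exact permutation p = 0.037), and without control week 2, replicate 1 it was 4.67 (exact permutation p = 0.0278). Without control week 2, replicate 2, the array with 15 members, it was 2.0 (exact permutation p = 0.139). With any probe well above background counted as detection, it was 6.33 (exact permutation p = 0.00926). All miRNAs together were again more often detected on NASH serum arrays, by 51.8 (exact permutation p = 0.0093). Only miR-466g and miR-669c-3p were detected in serum under 1 diet alone, each on 2 NASH arrays, which is 7.69% of the members detected in serum against 12.0% of all miRNAs; none was on control arrays alone, against 5.58%.

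Levels are given next as a percent of the array's scaling signal, the 75th percentile over those probes that stood well above background throughout the tissue. Each miRNA is represented by its brightest probe. Values below a floor were set to it, at 2.25% in liver and 3.81% in serum. Probes differ in brightness for reasons other than abundance, so levels are compared between arrays and never between miRNAs. Differences are log2, NASH minus control, from limma fits over all miRNAs with the detection flag on 2 or more arrays of that tissue (388 in liver, 426 in serum), with Benjamini-Hochberg adjusted p under 0.05 as a call.

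In liver 2 members, miR-466i-5p and miR-467b-3p, were higher in NASH than in control mice, and none fell. This was 2 of the 11 members tested, while 42.3% of all miRNAs tested (164 of 388) were called for the diet as a mean over weeks. The members' share was below that background, but 3 of the 11 were at the floor on all liver arrays and could not be called. Of all miRNAs tested, 85 (21.9%) were called higher. The median difference was 0.00 for the members and 0.00 for all miRNAs tested. Liver is a mixture of cells, and fewer cells of a type and less RNA per cell cannot be told apart in it. Markers of several cell types moved with the diet on the same arrays: 4 of 4 hepatocyte miRNAs were lower, 3 of 4 myeloid and lymphoid miRNAs and 1 of 2 stellate cell miRNAs higher, and 2 of 3 red cell miRNAs and the endothelial miR-126a-3p lower. The summed hepatocyte level was 6524% to 12403% on NASH arrays and 16227% to 18654% on control arrays, and the summed myeloid and lymphoid level 273% to 410% against 104% to 146%. The part of cell mixture in the members' differences was not tested.

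miR-466i-5p, the -5p arm of a hairpin within Cdk13, was higher in NASH liver at every week. Control arrays read 13.7% and 14.9% at week 1, 19.8% and 17.3% at week 2, and 19.9% and 15.7% at week 6. NASH arrays read 22.5% and 24.8% at week 1, 38.9% and 29.0% at week 2, and 23.6% and 26.2% at week 6. Every NASH array was above every control array, so the groups did not overlap. The mean difference over weeks was 0.69 (SE 0.10), or 1.62-fold, with an adjusted p of 0.00164, and all 6 NASH arrays were above the control mean of their week. Its other probe gave 0.72. The call held under all 29 alternatives, with differences from 0.34 to 1.12 and adjusted p from 4.1e-04 to 0.0246.

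miR-467b-3p, whose gene lies inside Sfmbt2, was also higher as a mean over weeks, but this rested on week 1. Both control arrays of week 1 were at the floor of 2.25%, and 1 of them carried the detection flag, while the NASH arrays read 15.3% and 24.04%. At week 2 control arrays read 15.8% and 18.1% and NASH arrays 31.1% and 27.3%. At week 6 the NASH arrays, at 19.2% and 19.6%, lay between the control arrays at 28.0% and 11.3%. The groups thus did not overlap at weeks 1 and 2 and overlapped at week 6. The mean difference over weeks was 1.34 (SE 0.24), with an adjusted p of 0.00434, and its 4 probes gave 1.24 to 1.37. Without the week 1 arrays the difference was 0.46 (SE 0.32) and was not called, with an adjusted p of 0.364, against 4.1e-04 to 0.364 over the 28 alternatives. This check was added after the values were seen. The mean over weeks rests in part on the floor.

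**Figure D2:**
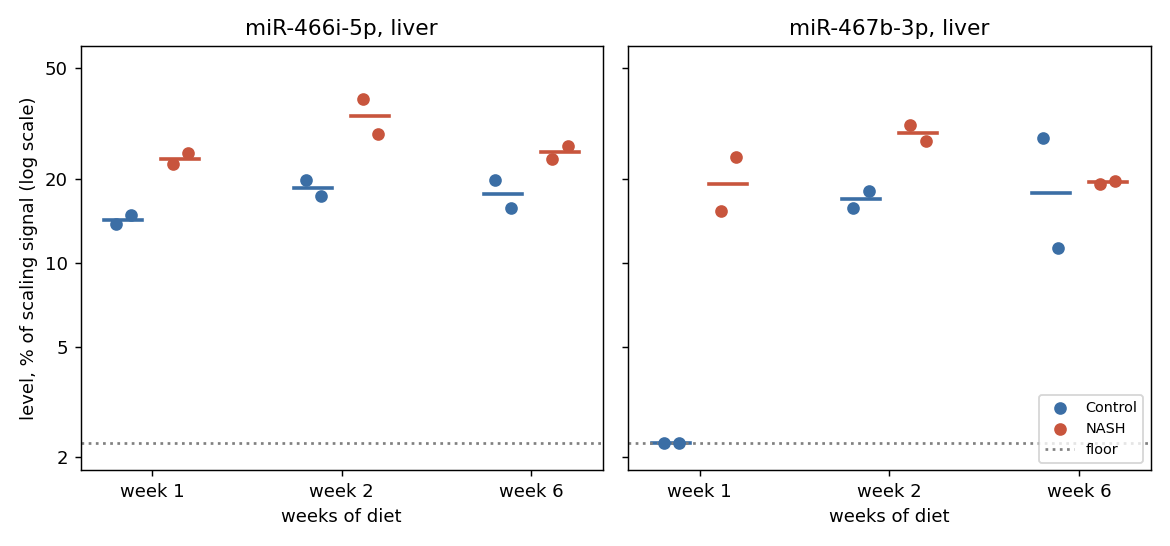
Liver level of miR-466i-5p (left) and miR-467b-3p (right) as a percent of the scaling signal on a log scale (y axis) by week of diet (x axis); points are arrays, bars the mean of log2 levels of 2 arrays, and the dotted line the floor. All NASH points of miR-466i-5p (22.5% and above) lie above all control points (19.9% and below), whereas for miR-467b-3p the control arrays of week 1 are at the floor and the NASH arrays of week 6 lie between the control arrays.

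Within single weeks the same pair carried the calls. At week 1, 2 of 11 members were called, beside 11.6% of all miRNAs tested. They were miR-467b-3p, at 3.09 (SE 0.42) with an adjusted p of 0.00686, and miR-466i-5p, at 0.73 (SE 0.17) with an adjusted p of 0.0438. Since miR-467b-3p was not well above background on the control arrays of week 1, its ratio there is given as at least 8.18-fold, the NASH mean over the lowest signals that counted as well above background. At week 2, 1 member was called, beside 30.7%: miR-466i-5p, at 0.86 (SE 0.17) with an adjusted p of 0.0107. At week 6, 0 of 11 members were called by limma, beside 28.4%, and 1 had an unadjusted p below 0.05, miR-466i-5p at 0.50 (SE 0.17; adjusted p = 0.0818).

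These weekly calls rested on few arrays. The week 1 call of miR-466i-5p was lost in 16 of 26 alternatives (adjusted p 0.0255 to 0.242), including those without either control array of week 1, and its week 2 call in 4 of 26. The week 1 call of miR-467b-3p was lost in 3 of 25 (adjusted p 0.00102 to 0.0735), among them the fit without control week 1, replicate 1. Without control week 2, replicate 2, only miR-467b-3p was called in any week. Without NASH week 2, replicate 2, 4 members were called in at least 1 week, with miR-466i-3p and miR-466q added.

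The diet difference was not shown to change between weeks. The F test between weeks called 0 of 11 members in limma, beside 3.35% of all miRNAs, and 1 had an unadjusted p below 0.05, miR-467b-3p (adjusted p = 0.0742 in limma). It was called without control week 6, replicate 1 and also without replicate 2, and miR-466i-3p was called without NASH week 2, replicate 2. Liver weeks 2 and 6 shared a slide, and the difference between them over both diets called 0 of 11 members in limma, beside 2.06%, with 0 at an unadjusted p below 0.05. Without NASH week 2, replicate 2, miR-466i-3p was called. Week 1 lay on another slide, so week and slide cannot be told apart there: miR-467b-3p was 1.50 and miR-466i-5p 0.19 higher on the log2 scale at week 6 than at week 1 as a mean over diets.

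The other members detected in liver lay near the floor and were not called. miR-467f ranged from 3.16% to 5.92%, miR-466q from 2.25% to 3.65% and miR-466h-3p from 2.25% to 3.88%. miR-669p-3p and miR-466f-3p were above the floor on 3 arrays each, all of weeks 2 and 6, and miR-466i-3p on 1, NASH week 2, replicate 1. miR-467a-3p, miR-669f-3p and miR-669n stayed at the floor on all 12 liver arrays. The differences of these 9 members ran from -0.07 for miR-466q to 0.06 for miR-466h-3p. At the floor no difference can be measured, so these values put no limit on changes below it.

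**Figure D3:**
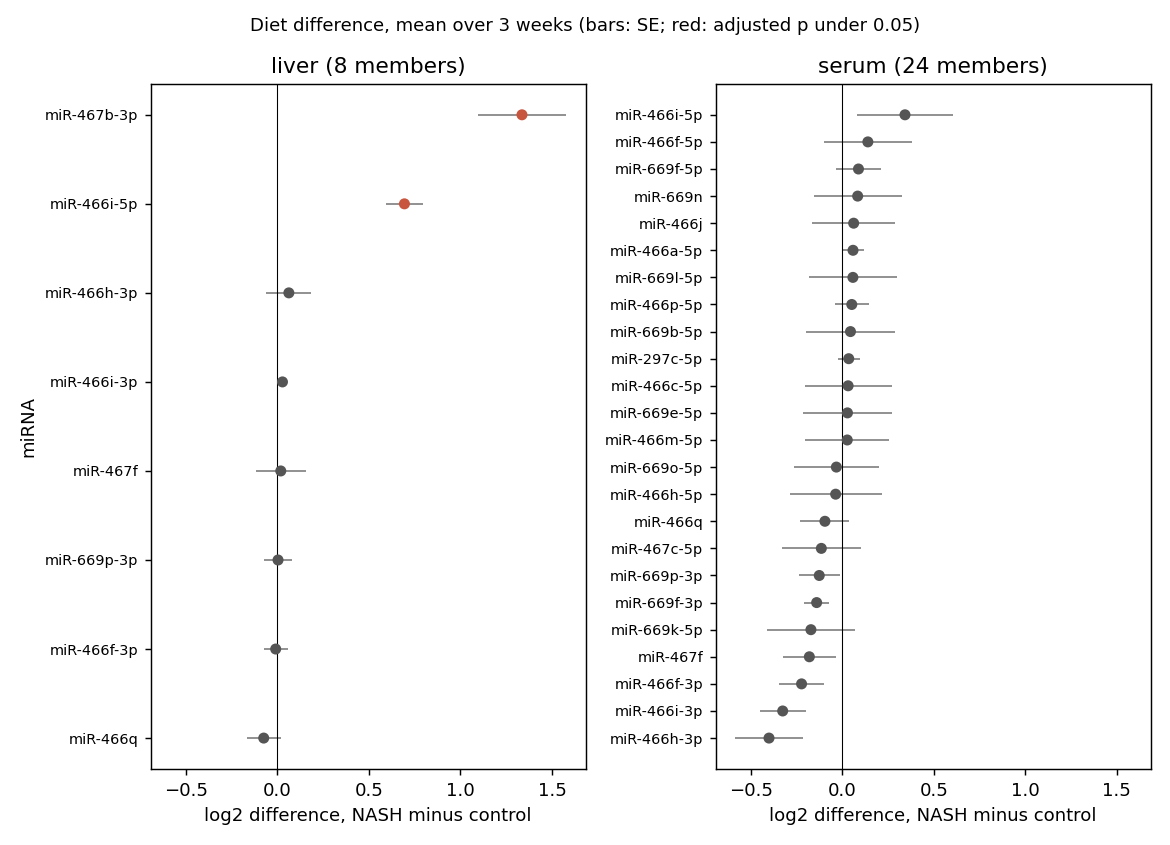
Log2 difference, NASH minus control as a mean over 3 weeks (x axis), with its SE as a bar, for each tested member not at the floor on all arrays (y axis), 8 in liver and 24 in serum. The 2 red points, miR-467b-3p at 1.34 and miR-466i-5p at 0.69 in liver, passed an adjusted p of 0.05, and no serum member did.

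Of the 5 miRNAs of other families with UGUGUGUG, the 3 detected in liver were also higher in NASH liver, and miR-32-3p and miR-672-5p stayed at the floor there. miR-574-5p read 5.12% to 7.33% on control liver arrays and 8.69% to 14.8% on NASH arrays, with no overlap. Its difference was 0.83 (SE 0.10, adjusted p = 8.7e-04). miR-3082-5p differed by 0.93 (SE 0.08, adjusted p = 2.2e-04) and miR-1187 by 0.60 (SE 0.12, adjusted p = 0.00702). On control liver arrays miR-3082-5p was above the floor only at week 2, replicate 1 (2.40%). miR-1187 was above it only there (2.95%) and at week 6, replicate 1 (2.83%). Both differences therefore rest in part on the floor. The opposite arm miR-574-3p differed by 0.05 (SE 0.01, adjusted p = 0.00132) and read 2.25% to 2.51%, at or just above the floor. In serum, where the same 4 were detected on all arrays, none was called, with adjusted p from 0.551 to 0.798.

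Array by array, the level of miR-466i-5p followed that of miR-574-5p. The liver arrays fell into separate diets, so the correlation was taken within each. Pearson's r was 0.94 over the 6 control arrays and 0.99 over the 6 NASH arrays, with a Spearman's rho of 1.0 in both, and each had an exact permutation p of 0.00278, the smallest the design allows (adjusted p = 0.005 over 9 relations). Without the 2 arrays farthest from the median of miR-574-5p, r was 0.996 and 0.982. In serum r was 0.996 and rho 0.986 over 12 arrays, with a permutation p of 2e-05 for both, the smallest that 100000 resamples can give (adjusted p = 6e-05), and r was 0.989 without the 2 farthest arrays. For miR-1187 r was 0.975 in serum (rho 0.937), 0.968 in NASH liver (rho 0.943, exact permutation p of r = 0.0111) and 0.863 in control liver (rho 0.778), the last not past the threshold (exact permutation p = 0.133, adjusted p = 0.15). For miR-3082-5p r was 0.978 in serum, 0.811 in NASH liver (exact permutation p = 0.0222, adjusted p = 0.0286) and 0.537 in control liver (exact permutation p = 0.667). Spearman's rho for miR-3082-5p in NASH liver was 0.829, with an exact permutation p of 0.0583. In control liver most values of miR-1187 and miR-3082-5p were at the floor, so their r there rests on the few arrays above it. The permutations exchanged arrays freely across weeks and slides, and in serum across diets. The miRNAs of a pair share the array, its scaling and its week. These p-values therefore do not separate a relation between the miRNAs from effects that they share. The sequence that miR-466i-5p shares with the other 3 was not measured here, as its own was not matched. The part of shared hybridization in these correlations was not tested.

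**Figure D4:**
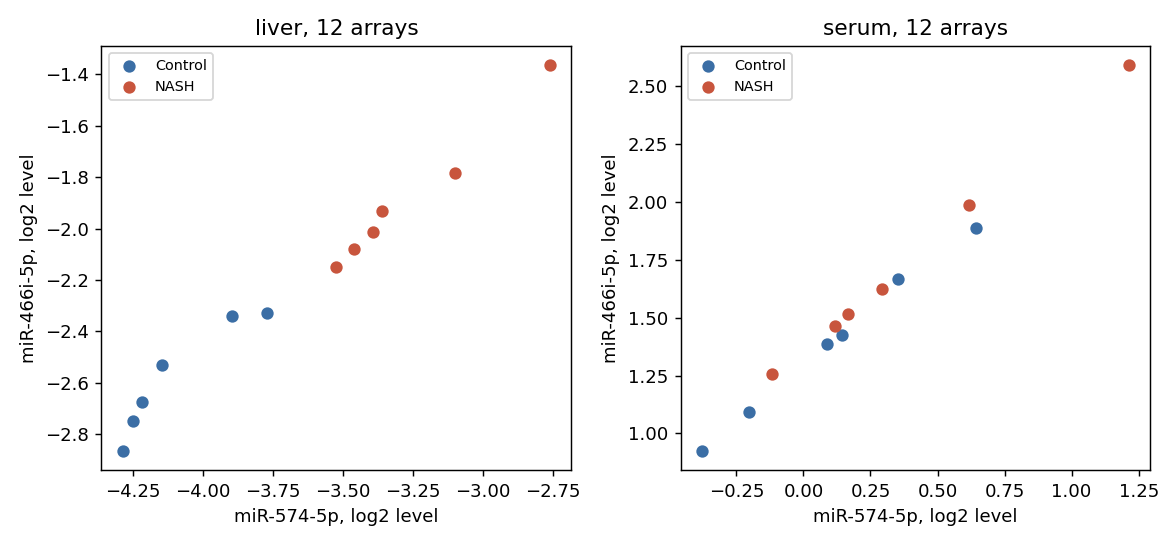
Log2 level of miR-466i-5p (y axis) against that of miR-574-5p (x axis) on 12 liver arrays (left) and 12 serum arrays (right), 1 point per array, coloured by diet. In liver the NASH points lie above and to the right of all control points, and in serum both diets are mixed along the line, with NASH week 6, replicate 2 at the top.

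In serum no member was called for the diet. This held for the values as scaled here and changed with other processing. The scaling signal was 338 to 408 on NASH and 144 to 230 on control arrays at weeks 2 and 6. At week 1 the diets overlapped. Of the cell type markers, 3 of 4 hepatocyte miRNAs were higher. The summed hepatocyte level was 1903% to 3187% on NASH and 90.8% to 427% on control arrays. Lower were 2 of 3 red cell, 2 of 4 myeloid and lymphoid (1 was higher) and 1 of 2 stellate cell miRNAs. The part of these shifts in the members' differences was not tested. As a mean over weeks limma called 0 of 26 members, beside 18.8% of all miRNAs tested (80 of 426), and 1 had an unadjusted p below 0.05, miR-466i-3p at -0.32 (SE 0.13; adjusted p = 0.14). The median difference was 0.01 for the members and -0.11 for all miRNAs. Differences ran from -0.40 (SE 0.18, adjusted p = 0.215) for miR-466h-3p to 0.34 (SE 0.26, adjusted p = 0.475) for miR-466i-5p. miR-466g and miR-669c-3p were at the floor on all serum arrays. With scaling over all probes miR-669p-3p was called, and without scaling miR-466i-5p. With normexp background correction 24 of the 26 members were called, beside 362 of all miRNAs tested. Among the members whose difference was followed over the alternatives, 6 of those called turned from above to below 0. The sign of the others was not followed. The calls also changed when 1 array was left out, which leaves 1 array in its group. 1 NASH array of week 6 has no number in its label and is called replicate 1 here. Without it miR-466a-5p, miR-466p-5p and miR-669f-5p were called. Each was above the floor on 1 NASH array only, week 6, replicate 2 (4.93%, 5.71% and 6.41%). Both control arrays of week 6 were at the floor for them. Other calls came without control week 1, replicate 1 (miR-669f-3p), without control week 2, replicate 2 (miR-466h-3p) or without control week 6, replicate 2 (miR-669p-3p).

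miR-466i-5p serum levels show how the arrays of a group spread. Control arrays read 268% and 190% at week 1, 261% and 370% at week 2, and 318% and 213% at week 6. NASH arrays read 308% and 286% at week 1, 397% and 239% at week 2, and 276% and 603% at week 6. NASH arrays were above both control arrays at week 1, and the groups overlapped at weeks 2 and 6. The miR-669n level was 26.4%, 37.0% and 68.3% as lowest, median and highest, and the miR-669e-5p level 8.51%, 13.3% and 23.3%. The highest value of each was again on NASH week 6, replicate 2.

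Single weeks gave no serum calls either. By limma, 0 of 26 members were called at week 1 (1.41% of all miRNAs), week 2 (2.58%) and week 6 (12.0%), with 0, 2 and 2 members at an unadjusted p below 0.05. Those of week 2 were miR-466i-3p at -0.58 (SE 0.22) and miR-669f-3p at -0.29 (SE 0.12), and those of week 6 miR-466h-3p at -0.91 (SE 0.32) and miR-467f at -0.75 (SE 0.25). Without NASH week 6, replicate 1, miR-297c-5p was called in at least 1 week beside the 3 members above. It too was above the floor on 1 NASH array only, week 6, replicate 2, at 4.84%. Without control week 2, either replicate, miR-466h-3p was called, and without control week 6, replicate 2, miR-669p-3p.

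The F test between weeks called 0 of 26 in limma (0.469% of all miRNAs), with 0 at an unadjusted p below 0.05, and 3 without NASH week 6, replicate 1. Serum weeks 1 and 2 shared a slide, and their difference over both diets called 0 of 26 members in limma (0.235% of all miRNAs). At an unadjusted p below 0.05 stood 3 members, all higher at week 2: miR-466f-3p by 0.46, miR-467f by 0.46 and miR-466i-3p by 0.44.

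Liver and serum were not shown to differ in the diet effect of any member. The difference of the differences called 0 of the 9 members tested in both tissues in limma, beside 34.8% of all miRNAs (102 of 293), and 1 had an unadjusted p below 0.05, miR-466i-3p at -0.35 (adjusted p = 0.0542). miR-466i-5p gave -0.35 (SE 0.28, adjusted p = 0.343). The call of miR-466i-5p in liver and its absence in serum therefore do not show a difference between the tissues. Leaving out 1 array called 1 member in 6 cases: miR-466i-3p without NASH week 1, replicate 2, NASH week 2, replicate 1, control week 2, replicate 1 or control week 6, replicate 2 of serum, miR-466h-3p without control week 2, replicate 2, and miR-669f-3p without control week 1, replicate 1.

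The -5p members that every serum array detected moved together across arrays, within each diet as well. The 11 of them, miR-466i-5p and the 10 -5p members not detected in liver, correlated pairwise at r from 0.70 to 0.995 (median 0.93, 55 pairs over 12 arrays). Within the 6 control arrays r was 0.58 to 0.999 (median 0.95), and within the 6 NASH arrays 0.86 to 1.00 (median 0.98). With the 2 -3p members detected on every serum array, miR-466f-3p and miR-466i-3p, they correlated at 0.04 to 0.50 (median 0.32, 22 pairs), while those 2 correlated at 0.94 with each other. Without scaling the ranges were 0.88 to 0.999 and 0.48 to 0.75. Both -3p members lay near the floor. miR-466f-3p read 3.82% to 8.37%, and miR-466i-3p was at the floor on NASH week 1, replicate 1 and on both NASH arrays of week 6. Of the -5p members, miR-467c-5p and miR-669k-5p were at the floor on control week 1, replicate 2 and NASH week 2, replicate 2. The part of the floor in these correlations was not tested. Such likeness was not limited to -5p members. In serum miR-669e-5p correlated at 0.92 to 0.99 with the miRNAs of other families with UGUGUGUG, and most highly with miR-32-3p. It correlated at 0.98 with miR-669n and miR-466j, which have no arm in the name, and at -0.10 and 0.05 with miR-466q and miR-467f. These values are a description, since all points share the array and its scaling. The sequences of the 11 -5p members were not matched, so what they share in sequence was not measured. The geometric mean level of the 11 was highest on NASH week 6, replicate 2, at 20.4%, and next on control week 2, replicate 2, at 17.0%. It was lowest on control week 1, replicate 2, at 7.75%, the array with most outlier spots. The span was 2.63-fold with scaling and 3.97-fold without it, while the scaling signal itself spanned 4.46-fold. Replicates of a group could lie far apart, as at NASH week 6 with 10.6% and 20.4%.

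**Figure D5:**
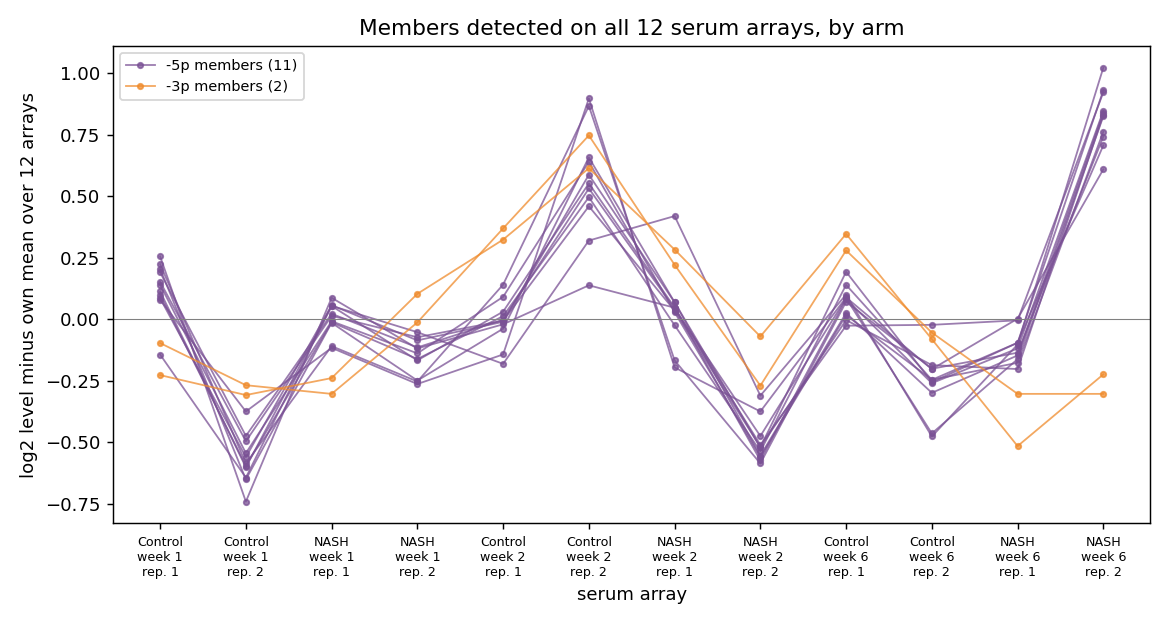
Log2 level of each member detected on all 12 serum arrays, minus its own mean over those arrays (y axis), by array (x axis, ordered by week, diet and replicate); lines join the points of 1 member, 11 -5p and 2 -3p. The -5p lines rise and fall together; 9 of the 11 are highest at NASH week 6, replicate 2, where both -3p lines lie below 0, and miR-467c-5p and miR-669k-5p are highest at control week 2, replicate 2.

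The members most like the 2 detected on all 24 arrays were found by Pearson's r over the 12 arrays of a tissue. In serum the 3 members closest to miR-466i-5p were miR-669n (r = 0.94), miR-466j (0.90) and miR-669l-5p (0.90), all UG-rich or -5p. Those closest to miR-466f-3p were miR-466i-3p (0.94), miR-467f (0.67) and miR-466h-3p (0.64). In liver those closest to miR-466f-3p were miR-669p-3p (0.99), miR-467f (0.86) and miR-466q (0.83), and those closest to miR-466i-5p were miR-467b-3p (0.77), miR-466i-3p (0.63) and miR-466h-3p (0.53), all -3p arms. The liver values carry the diet difference and the floor.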

How the data were processed

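Arrays were scanned and spot intensity extracted with Agilent Feature Extraction 11.5, per the submitters' processing notes. The deposited intensity is background-subtracted and not normalized between arrays, per the file headers. The authors' deposited detection flags per miRNA were used as given. Control spots and outlier spots were dropped, and spots were averaged per probe. Signals were scaled to the 75th percentile of their array, taken over 299 liver or 253 serum probes that were well above background throughout the tissue. As floor served the 5th percentile of scaled signals above background, as the median of 12 arrays. limma 3.58.1 in R 4.3.3 was fitted per tissue to 6 diet-by-week groups with eBayes, and checked on simulated data. Tests covered miRNAs flagged as detected on 2 or more arrays. No member probe was saturated. Named with values are members detected on all arrays of a tissue or called in a contrast, and the 3 most alike to the most detected; related miRNAs came from a list of UG and CA repeats. The number of arrays limits the precision. The members and lists were chosen with earlier results of these data known. Alternatives concerned the scaling, the background correction, the signal column, the floor, the filter, how probes were summarised, the variance model, blocks and single arrays or weeks left out. Gene positions came from RefSeq by name.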

Additional observations from a re-analysis of the deposited data

How the results depend on the processing

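The counts of members called were compared with 2 (liver diet, mean over weeks), 0 (serum diet), 2 (liver in any week), 0 (serum in any week) and 0 for differences between weeks, within-slide weeks and tissues. Normexp background correction gave 7, 24, 0 and 25 for the first 4 and 24 for serum week 2 minus week 1. Of all miRNAs tested, 204 of 388 were called in liver and 362 of 426 in serum as means over weeks. For serum week 2 minus week 1 it was 314 of 426. Normexp adds an offset of 50 before scaling, starts from median spot intensities and sets no floor. Which of these moved the counts was not tested. Under it the called differences of miR-669p-3p in liver (-0.34) and of miR-466c-5p (-0.40), miR-466f-5p (-0.38), miR-466j (-0.43), miR-466m-5p (-0.34), miR-669b-5p (-0.39) and miR-669l-5p (-0.32) in serum were reversed in sign from the uncalled ones. Scaling over all probes gave 1 in serum, 1 in liver weeks, 2 in serum weeks, 1 in each difference between weeks, 1 for serum week 2 minus week 1 and 2 between tissues. No scaling gave 4 in liver, 1 in serum, 1 for the liver difference between weeks and 1 between tissues, where the median of all miRNAs detected on every array moved from -0.06 to 0.30 in liver and from -0.28 to 0.44 in serum. The total signal gave 1 for the liver difference between weeks. Quantile normalization, a floor at the 1st percentile, no detection filter and the trend and robust variance model each gave 1 between tissues. Without a filter liver weeks gave 0. With detection on all 12 arrays required, miR-467b-3p was not tested, and liver gave 1 as a mean and 1 in any week. Without week 1, an alternative added after seeing the data, liver gave 1, miR-466i-5p. The cause of these changes was not tested, apart from the member that the filter left out.

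Replicate numbers were not taken as pairs. Deviations of same-numbered liver arrays correlated at -0.46, 0.33 and 0.44 in weeks 1, 2 and 6, so 1 of 3 went the other way. In serum they correlated at 0.53, 0.13 and 0.18. But 1 NASH array of week 6, called replicate 1 here, carries no number in its label. This leaves 2 serum weeks in which every array is numbered. A replicate block, which leaves that array out, gave 3 members in serum, 4 in serum weeks and 2 for the serum difference between weeks. Leaving out that array alone gave 3, 4 and 3. The block changed no other count. Leaving out single arrays gave 0 to 3 in serum, 0 to 4 in serum weeks, 0 to 3 for the serum difference between weeks, 1 to 4 in liver weeks, 2 to 3 in liver, 0 to 1 for the liver difference between weeks, 0 to 1 for liver weeks 6 and 2, and 0 to 1 between tissues. The serum difference in members detected was 2.0 to 4.67 without single arrays and 6.33 (exact permutation p = 0.00926) when any probe with spots well above background counted as detection. Low signal over background limits most members: the floor holds 3 of 11 tested members in liver and 2 of 26 in serum on all arrays.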
